A study of Xenopus laevis with 90 samples.

Results

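Depleted Xenopus laevis embryos at 7.5 h post-fertilisation (hpf) were compared with wild type embryos that were 1 h younger, at 6.5 hpf. The question was whether embryos with reduced H3K4 methylation resembled a younger wild type stage or stood in a state of their own. The libraries were chosen by their titles, 3 of each group from each of 2 frogs, so that 12 of the 90 RNA-seq libraries of the series entered the comparison. Each library was made from a pool of 3 sibling whole embryos. Depleted embryos received mRNA for the wild type form of the mouse H3K4 demethylase Kdm5b (Kdm5bwt, 11 ng), for the histone mutant H3.3K4M (345 pg) and for the auxin receptor TIR1 (5 ng), and were kept without auxin (IAA), so the injected proteins persisted. Control-injected embryos received the catalytically inactive Kdm5bci (4 ng), unmutated H3.3 (H3.3wt, 345 pg) and TIR1 (5 ng), also without auxin, and wild type embryos received no mRNA. The doses were set so that the injected proteins reached similar levels, and the study's text describes poor survival of both injected groups at full dose. Every group carried the genotype label WT, and for embryos the only age given is the time after fertilisation. Since the older embryos were also the injected ones, time, injection and depletion cannot be told apart within this comparison. Wild type and control-injected embryos of 7.5 hpf, 3 libraries each from each frog, are therefore given beside it.

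The early frog embryo runs on RNA and protein stored in the egg, and divides rapidly without transcribing most of its genome. At zygotic genome activation (ZGA), maternal transcription factors of the Pou5f3, Sox and Vegt families open the genome, zygotic genes of the germ layers switch on, and maternal transcripts are cleared. Trimethylation of histone H3 at lysine 4 (H3K4me3) marks the promoters of active genes. Kdm5 enzymes remove it, and the K4M mutation replaces the lysine that would carry it.

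Values are TPM, a measure of transcript abundance corrected for transcript length and set to a fixed total per library, rescaled within each frog so that the median gene averaging 10 TPM or more was level across libraries, and log2 changes are of rescaled TPM + 1, which understates changes of low genes. A TPM table holds no read totals, so the depth of the libraries is unknown, and in bulk embryos fewer expressing cells and less RNA per cell cannot be told apart. Ribosomal RNA took 6.69% to 8.65% of the deposited TPM in the 6.5 hpf wild type pools of frog 1 and 1.77% to 15.6% in those of frog 2, where pool 2.2 was the highest. The globin gene hbg1.L, whose untranslated regions the injected constructs carry, stood at 7625 to 27973 deposited TPM in the depleted pools and at 0.829 or below in the wild type pools of both ages, which matches the labels. The endogenous kdm5b.S did not pass the test (log2 changes of -0.02 in frog 1 and 0.01 in frog 2). Zygotic markers of ectoderm (foxi1, grhl3), mesoderm (eomes, wnt8a) and endoderm (sox17b, mix1) were present in depleted pools of both frogs, and of these marker genes tbxt.L fell under the filter in frog 2. Copies on the L and S subgenomes of this allotetraploid species can be similar enough to share reads, so the split between them is uncertain.

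On rescaled values, though not on the TPM as deposited, more genes were higher than lower in depleted embryos against younger wild type embryos. In frog 1, 1987 of 20891 genes (9.51%) were higher and 692 (3.31%) lower at an adjusted p below 0.05 (limma with Benjamini-Hochberg adjustment, two-sided). In frog 2, 2206 of 20277 genes (10.9%) were higher and 1435 (7.08%) lower. Both frogs gave the same call for 1256 higher genes (6.41% of 19581 tested in both) and for 353 lower genes (1.8%). The higher genes shared were 63.2% of those of frog 1 and 56.9% of those of frog 2, and the lower genes shared were 51% and 24.6%. With globin and H3.3 genes left uncounted, the depleted pools lay outside the range of the wild type pools in both frogs for 1214 of the 1256 and for 327 of the 353. Genes chosen by a call tend to separate in this way, and the same count over all genes is not given, so these numbers are descriptive.

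Wild type embryos over the same hour, and control-injected embryos against the same 6.5 hpf pools, each gave more calls. Wild type embryos of 7.5 hpf had 1707 genes higher (8.72%) and 1359 lower (6.94%) in both frogs, and control-injected embryos had 1991 higher (10.2%) and 1365 lower (6.97%). All 3 comparisons share the 6.5 hpf libraries. Against wild type embryos of their own age, depleted embryos had 818 genes higher (4.18%) and 584 lower (2.98%), and against control-injected embryos 59 higher (0.301%) and 192 lower (0.981%). The pools of a frog are siblings, so these p-values measure the spread between pools and not between animals.

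The split between higher and lower calls depended on the scaling. Higher genes were 74.2% of the calls in frog 1 and 60.6% in frog 2 after rescaling, 60.5% and 50.4% where only genes of at least 50 TPM set the scale, 37.5% and 37% after quantile normalisation, and 35.1% and 12.3% on the TPM as deposited, where the median gene lay 0.20 and 0.23 log2 units lower in depleted pools. Leaving out any 1 of its 6 pools lowered the count of lower genes in frog 1 from 692. It was 470, 464 and 448 without depleted pools 1.1, 1.2 and 1.3, and 469, 457 and 421 without the wild type pools of these numbers. The count in both frogs was 220 without wild type pool 1.3.

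Depleted embryos stood most of the way along the wild type step over genes that rise and, on rescaled values, about midway or less over genes that fall. Genes that rise between 6.5 and 7.5 hpf in wild type embryos (log2 change of at least 1, adjusted p below 0.05) or fall (-0.50 or below) were taken from the other frog, so no library chose its own list. The mean of each list was then placed on a scale with wild type 6.5 hpf at 0 and wild type 7.5 hpf at 1. Over 917 rising genes in frog 1, the depleted pools stood at 0.720 ± 0.0153 (SD, n = 3) and the control-injected pools at 0.949 ± 0.0922. Over 913 rising genes in frog 2, depleted pools stood at 0.608 ± 0.00581 and control-injected pools at 0.930 ± 0.176. No depleted pool reached the lowest control-injected pool, at 0.875 in frog 1 and 0.798 in frog 2, and every depleted pool was past every younger wild type pool, of which the highest stood at 0.05 and 0.0423.

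On rescaled values falling genes stood at lower positions than rising genes. Over 837 of them in frog 1, depleted pools stood at 0.479 ± 0.0369 and control-injected pools at 0.909 ± 0.261, and over 380 in frog 2 at 0.390 ± 0.0273 and 0.735 ± 0.345. Here the groups of injected embryos met, since the lowest control-injected pool of frog 2, at 0.397, lay below the highest depleted pool at 0.412. On the TPM as deposited the falling positions were 0.722 and 0.550 and the rising positions 0.704 and 0.620, so the order of the lists turned in frog 1. Depleted embryos had stood level with their own age or behind it one time point earlier. At 6.5 hpf the depleted pools were at -0.0524 over rising genes in frog 1 and at -0.254 in frog 2, where 0 is wild type of that age. At 5.5 hpf the difference from wild type was small, with -0.510 against -0.50 in frog 1 and -1.02 against -1.02 in frog 2.

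**Figure D1:**
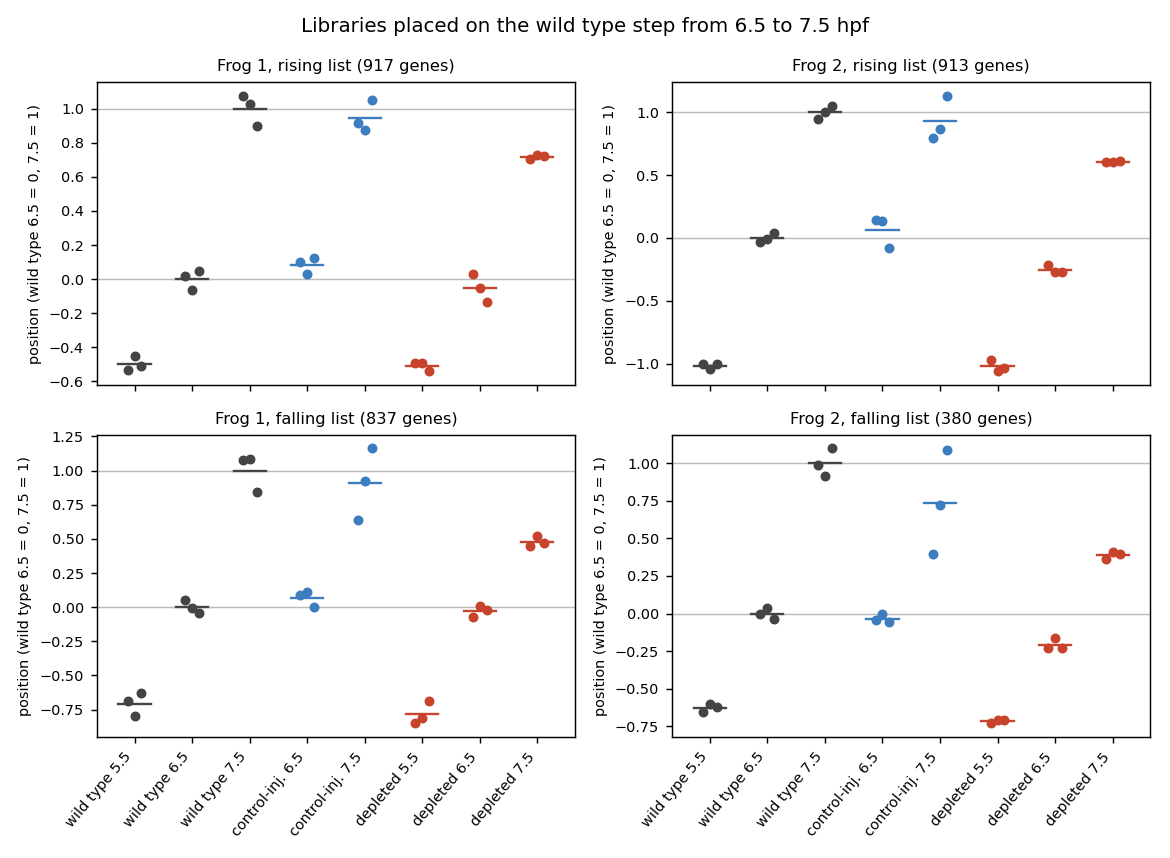
Position of each library on the wild type step from 6.5 hpf (0) to 7.5 hpf (1), as the mean log2(rescaled TPM + 1) over genes that rise or fall in wild type embryos of the other frog, in 1 panel for each frog and list. Each point is 1 pool, and the depleted pools at 7.5 hpf lie between the wild type stages in all 4 panels, closest together over rising genes of frog 2 (0.603 to 0.615).

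Single genes did not all stop at one intermediate level. Of the 917 rising genes in frog 1, depleted embryos were above wild type 6.5 hpf and below wild type 7.5 hpf for 201 genes (21.9%), with both differences past the test. A larger number, 368 genes (40.1%), were above the younger stage and not called against the older one, while 134 (14.6%) were below the older stage and not called against the younger. Behind even the younger stage were 10 genes (1.09%), and past the older stage 37 (4.03%), and 167 (18.2%) were called against neither. The 913 rising genes of frog 2 gave 236 (25.8%), 285 (31.2%), 218 (23.9%), 29 (3.18%), 62 (6.79%) and 83 (9.09%) in the same order. For control-injected embryos, 570 genes in frog 1 (62.2%) and 633 in frog 2 (69.3%) were past the younger stage and not called against the older, and 52 (5.67%) and 29 (3.18%) were still called only against the older. A gene not called against a stage is not shown to be level with it.

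Genes that fall in wild type embryos were spread over the same classes. In frog 2, 178 of 380 (46.8%) were above wild type 7.5 hpf and not called against 6.5 hpf, 84 (22.1%) were between with both differences called, and 58 (15.3%) had left 6.5 hpf and were not called against 7.5 hpf. In frog 1 the same classes held 205 (24.5%), 95 (11.4%) and 117 (14%) of 837 genes, and 413 (49.3%) were called against neither stage. Control-injected embryos had left the 6.5 hpf level without a call against 7.5 hpf for 491 of the 837 and 289 of the 380.

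**Figure D2:**
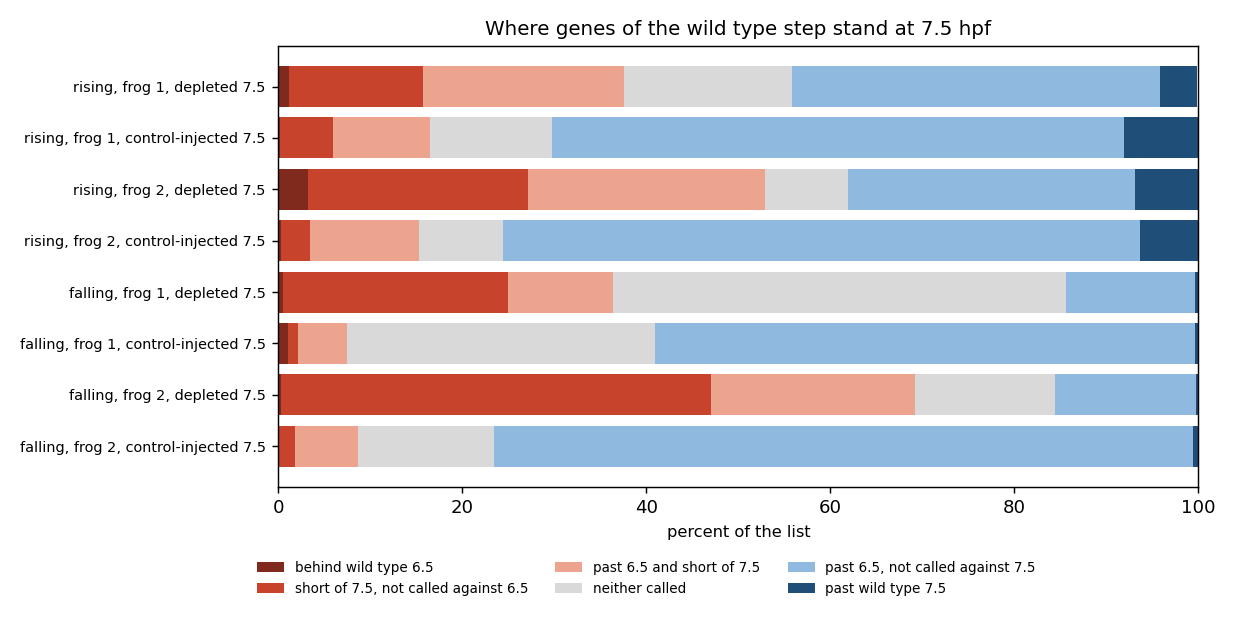
Share of rising and falling genes (percent of each list, x axis) by how depleted and control-injected embryos at 7.5 hpf were called against wild type 6.5 and 7.5 hpf, in 1 bar for each frog, list and group. In depleted embryos the class still short of 7.5 hpf and not called against 6.5 hpf holds 14.6% and 23.9% of rising genes, and in control-injected embryos 5.67% and 3.18%.

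Small nuclear RNA (snRNA) genes, which encode the RNAs of the splicing machinery, were the largest class among genes that rose to a level not called against wild type 7.5 hpf. Here the rising genes were the 813 called higher at 7.5 than at 6.5 hpf in wild type embryos of both frogs (mean log2 change of at least 1). Unlike the lists above, this list was chosen with the same wild type libraries. Of 254 genes in that state in both frogs, 113 were snRNA genes, 82 coded for protein, 33 were lncRNA genes and 22 tRNA genes. Among all genes tested in both frogs these classes made up 1.46%, 88.1%, 5.28% and 0.245%. Near-identical copies count here as separate genes. The make-up of all rising genes is not given, so these shares do not set depleted embryos apart from wild type embryos. The summed rescaled TPM of the 285 snRNA genes tested was 23620, 22872 and 25228 in depleted pools of frog 1 and 9249, 7803 and 8400 in wild type pools of 6.5 hpf. Wild type pools of 7.5 hpf held 23590, 24457 and 21574, which overlapped the depleted ones. In frog 2 the depleted pools held 47404, 38550 and 42432, the younger wild type pools 19286, 20689 and 22428, and the older 39281, 46334 and 52640.

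By single genes, 154 of the 285 snRNA genes (54%) were higher in depleted embryos than at 6.5 hpf in both frogs, with a median log2 change of 1.41 over all 285, and 0 were lower. Over all genes 6.41% were higher and 1.8% lower. Wild type embryos of 7.5 hpf were higher than the same younger pools for 154 of the 285, and control-injected embryos for 178, beside 8.72% and 10.2% of all genes. Depleted embryos were called against wild type 7.5 hpf and against control-injected embryos for 0 snRNA genes in both frogs in either direction, and the medians were -0.12 and -0.24. Over all genes 2.98% were lower and 4.18% higher than wild type 7.5 hpf, and 0.981% lower and 0.301% higher than controls. For tRNA genes, which encode the adaptors of translation, 23 of 48 were higher than at 6.5 hpf, with a median of 2.54, and 0 of 48 were called against wild type 7.5 hpf, with a median of -0.23, or against controls, with a median of -0.43. Against the same younger pools 32 of the 48 were higher in wild type embryos of 7.5 hpf and 38 in control-injected embryos. The shares over all genes are those given for the snRNA genes. Restricted to protein-coding genes, the position over rising genes was 0.639 in frog 1 and 0.517 in frog 2. Copies of snRNA and tRNA genes are nearly identical, so values of single copies are uncertain, and small RNAs are measured only in part by this kind of library.

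Among known regulators of ZGA, 11 of 27 genes were higher than at 6.5 hpf in both frogs and 0 lower (median log2 change 0.28, against 0.00 over all genes), while 12 were lower and 0 higher than wild type 7.5 hpf (median -0.38). Over all genes 6.41% were higher and 1.8% lower than at 6.5 hpf, and 2.98% lower and 4.18% higher than wild type 7.5 hpf. Against control-injected embryos 5 of the 27 were lower and 0 higher in both frogs, beside 0.981% and 0.301% of all genes. Pou5f3 proteins are the frog relatives of mammalian Oct4. The zygotic pou5f3.2.L (8L) stood at 67.4, 57.9 and 65.4 rescaled TPM in wild type pools of 6.5 hpf in frog 1, at 224, 227 and 207 in depleted pools and at 325, 345 and 251 in wild type pools of 7.5 hpf. In frog 2 these were 58.7, 56.3 and 70.1, then 158, 157 and 171, then 260, 279 and 293, so the depleted pools lay between the stages without overlap in both frogs. It was 1.77 ± 0.12 (SE) and 1.38 ± 0.13 above the younger stage on the log2 scale, and -0.47 and -0.77 against the older (adjusted p = 0.0054 and 1.9e-05, limma). Its neighbour pou5f3.1.L had covered less of the step, with 11.8, 14.1 and 10.4 in depleted pools of frog 1 against 1.68, 1.49 and 2.01 in younger and 37.6, 42.9 and 30.9 in older wild type pools. Depleted pools of frog 2 held 3.51, 4.91 and 4.18 of pou5f3.1.L, against 1.38, 1.81 and 2.26 and then 24.9, 32.0 and 35.5.

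Homeobox genes of the Ventx family, which act with BMP signalling on the ventral side, were divided within that list. Of 8 tested, 7 were higher than at 6.5 hpf in both frogs, and 3 were lower than wild type 7.5 hpf, ventx1.1.L (-1.24, mean of the frogs), ventx1.1.S (-1.49) and ventx1.2.L (-1.59). These 3 genes were not called against control-injected embryos in both frogs (means of -0.49, -0.70 and -0.92). The gene not called higher in both, ventx1.1.L, was called in frog 2 without depleted pool 2.2 (0.75, adjusted p = 0.041, limma). Of the other 5, ventx1.2.S and ventx2.1.L are given here. Depleted pools of frog 1 held 39.5, 67.5 and 45.3 rescaled TPM of ventx1.2.S, against 3.75, 2.24 and 1.94 at 6.5 hpf and 33.5, 61.1 and 48.5 at 7.5 hpf. The log2 changes were 3.82 and 2.41 against the younger stage and 0.09 and 0.11 against the older, where the test was not passed (adjusted p = 0.94 and 0.75, limma). A second member, ventx2.1.L, gave 2.34 and 1.83 against the younger stage and -0.25 and -0.21 against the older, again without a call there.

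Endoderm and Nodal pathway genes had the highest median change of the lists. Of 37 genes, 30 were higher than at 6.5 hpf in both frogs and 0 lower (median 1.67), and 12 were lower and 3 higher than wild type 7.5 hpf (median -0.51). The shares over all genes were 6.41% and 1.8%, then 2.98% and 4.18%. Against control-injected embryos 9 of the 37 were lower and 0 higher in both frogs, beside 0.981% and 0.301% of all genes. The T-box gene eomes.S (6S), which acts with Nodal signalling in mesendoderm and was listed under mesoderm, shows the size of the step. In frog 1 it stood at 2.57, 2.35 and 3.69 rescaled TPM in younger wild type pools, 80.1, 90.4 and 80.1 in depleted pools, 116, 81.5 and 77.5 in older wild type pools and 126, 136 and 141 in control-injected pools. Frog 2 held 1.69, 2.55 and 2.23, then 20.8, 29.5 and 29.2, then 49.6, 50.5 and 54.8, and 34.3, 37.4 and 62.5 in controls. The depleted pools were thus 4.46 ± 0.18 and 3.12 ± 0.20 log2 units above the younger stage, overlapped the older stage in frog 1 (-0.11, adjusted p = 0.88, limma) and lay below it in frog 2 (-0.95, adjusted p = 0.0006). The endoderm factor sox17b.1.L was past both stages, at 126, 138 and 101 in depleted pools of frog 1 against 15.5, 12.7 and 17.5 and then 79.8, 63.4 and 71.8 in wild type with control-injected pools at 166, 153 and 151. Depleted and control-injected embryos were not called apart for this gene (-0.37 and -0.06, adjusted p = 0.44 and 0.88, limma). The homeobox activator of endoderm genes mixer.L was also past both stages, 4.1 and 3.47 above the younger and 0.91 and 0.81 above the older stage. Control-injected embryos were 3.95 above the younger stage for mixer.L (mean of the frogs), and depleted embryos were not called apart from them in both frogs (-0.16). The S copies sox17b.1.S and mixer.S were not called above wild type 7.5 hpf in both frogs (means of 0.37 and 0.34).

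Most mesoderm and organizer genes were below wild type embryos of their own age. Of 52 genes, 23 were higher than at 6.5 hpf in both frogs and 0 lower (median 0.72), and 34 were lower and 4 higher than wild type 7.5 hpf (median -0.98). The shares over all genes were 6.41% and 1.8%, then 2.98% and 4.18%. Against control-injected embryos 12 of the 52 were lower and 0 higher in both frogs, beside 0.981% and 0.301% of all genes. The organizer homeobox gene gsc.S (8S) stood at 15.2, 22.9 and 16.9 in depleted pools of frog 1, above 2.61, 2.72 and 2.86 in younger and below 71.5, 41.2 and 46.2 in older wild type pools. In frog 2 it stood at 15.5, 16.5 and 15.8, between 5.66, 3.81 and 3.60 and 47.8, 57.0 and 47.8. None of these groups overlapped, and the log2 changes were 2.35 and 1.68 against the younger stage and -1.46 and -1.61 against the older. The L copy, gsc.L, was 3.31 above the younger stage (mean of the frogs) and was not called against the older in both frogs (-0.98). The BMP antagonist nog.L did not leave the younger level by the test (0.31 and -0.55, adjusted p = 0.61 and 0.1, limma) and gave -1.90 and -2.42 against the older stage. It was lower than at 6.5 hpf in frog 2 on the TPM as deposited and after quantile normalisation. Gsc.S and nog.L were not called below control-injected embryos in both frogs (mean log2 differences of -1.18 and -1.19), whereas wnt8a.L was (-0.89). Wnt8a.L, a Wnt ligand of the ventrolateral mesoderm, was between the stages, with 1.55 and 0.66 against the younger and -1.04 and -1.60 against the older, and in frog 2 its call against the younger stage was lost without depleted pool 2.2 (0.55, adjusted p = 0.10), depleted pool 2.3 (0.60, adjusted p = 0.077) or wild type pool 2.1 (0.57, adjusted p = 0.093).

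Ectoderm and neural genes were divided. Of 41 genes, 13 were higher and 2 lower than at 6.5 hpf in both frogs (median 0.12), and 3 were higher and 18 lower than wild type 7.5 hpf (median -0.34). The shares over all genes were 6.41% and 1.8%, then 4.18% and 2.98%. Against control-injected embryos 7 of the 41 were lower and 0 higher in both frogs, beside 0.981% and 0.301% of all genes. Foxi1.L (3L), which activates early ectoderm genes, stood at 47.9, 48.8 and 47.0 in depleted pools of frog 1, past both 8.84, 6.00 and 11.4 at 6.5 hpf and 19.2, 18.1 and 18.0 at 7.5 hpf. In frog 2 it stood at 55.7, 53.6 and 57.2, past 5.91, 6.49 and 5.03 and 7.92, 9.30 and 8.49. Control-injected pools held 58.2, 55.6 and 42.8 in frog 1 and 63.5, 70.2 and 41.4 in frog 2, a range that took in the depleted pools. The surface ectoderm factor grhl3.L was also above both stages, by 3.83 and 3.78 and by 0.79 and 1.18. It was 3.89 above the younger stage in control-injected embryos (mean of the frogs), from which depleted embryos were not called apart in both frogs (-0.08). Its S copy was not called above wild type 7.5 hpf in both frogs (mean of 0.37). At the other end was the neural plate gene foxd4l1.1.L, at 4.45, 4.53 and 2.81 in depleted pools of frog 1 and 3.21, 3.02 and 2.12 in frog 2, near the younger wild type pools (1.81 to 2.57 and 3.38 to 4.64) and far from the older (20.6 to 23.8 and 20.9 to 27.6). It was not called against the younger stage (0.58 and -0.41), but was lower than it in frog 2 on the TPM as deposited. Against control-injected embryos its mean log2 difference was -1.35, without a call in both frogs. Its S copy, foxd4l1.1.S, lay between the stages in both frogs, with mean changes of 2.11 against the younger and -1.06 against the older, and reads may be shared between the copies.

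**Figure D3:**
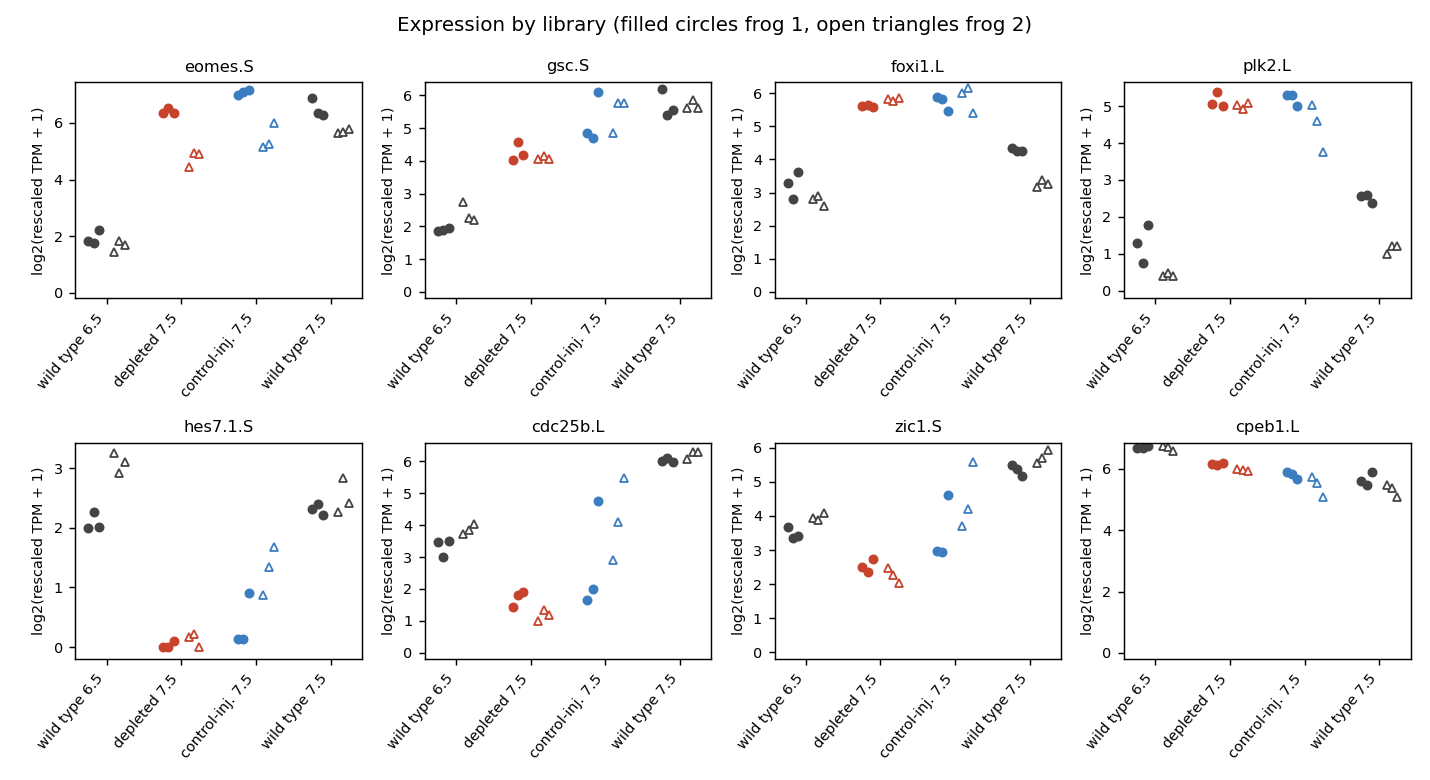
Log2(rescaled TPM + 1) of 8 genes (y axis) in each pool of wild type 6.5 hpf, depleted 7.5 hpf, control-injected 7.5 hpf and wild type 7.5 hpf embryos (x axis), with circles for frog 1 and triangles for frog 2. Eomes.S and gsc.S stand above the younger stage in depleted pools, foxi1.L and plk2.L above both stages, hes7.1.S, cdc25b.L and zic1.S below both, and cpeb1.L between them.

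Most maternal transcripts of the list were not called. Of 49 maternal and oocyte genes, 9 were lower and 2 higher than at 6.5 hpf in both frogs (median -0.10), beside 1.8% and 6.41% of all genes. Against wild type 7.5 hpf 10 were higher and 1 lower (median 0.09), beside 4.18% and 2.98% of all genes. Against control-injected embryos 5 of the 49 were higher and 1 lower in both frogs, beside 0.301% and 0.981% of all genes. Wild type embryos of 7.5 hpf were lower than at 6.5 hpf for 16 of the 49, and control-injected embryos for 18, beside 6.94% and 6.97% of all genes. The mRNA of cpeb1.L (3L), which controls polyadenylation of stored mRNA, stood at 101, 101 and 107 rescaled TPM in younger wild type pools of frog 1, 69.4, 68.5 and 72.2 in depleted pools and 47.7, 43.6 and 59.1 in older wild type pools. Frog 2 had 105, 104 and 94.0, then 62.7, 60.5 and 60.2, then 43.2, 40.8 and 32.4. The depleted pools lay between the stages without overlap, -0.55 and -0.71 against the younger and 0.49 and 0.65 against the older. Fbxo43.L, an inhibitor of the anaphase-promoting complex in the egg, was likewise -0.51 and -0.56 against the younger and 0.68 and 0.89 against the older stage. Both cpeb1.L and fbxo43.L were called above control-injected embryos in both frogs (means of 0.43 and 0.38). Eef1a1o.S of the same list went the other way, with a mean change of 0.67 from the younger stage.

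Cell cycle genes around the midblastula transition were mostly not called. Of 55 genes, 7 were higher and 4 lower than at 6.5 hpf (6.41% and 1.8% of all genes), with a median of 0.01, and 9 were higher and 7 lower than wild type 7.5 hpf (4.18% and 2.98% of all genes), also with a median of 0.01. The mitotic kinase gene cdk1.L stood at 66.2, 68.0 and 67.0 in depleted pools of frog 1, near 73.7, 72.2 and 78.9 in younger wild type pools and above 42.5, 35.7 and 44.5 in older ones. It was not called against the younger stage (-0.16 and -0.11) and was 0.71 and 0.92 above the older, and on the TPM as deposited it was called lower than the younger stage in frog 1. Ccne2.L, a cyclin of the G1/S transition, was between the stages, 1.15 above the younger in each frog and -0.66 and -1.34 against the older.

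**Figure D4:**
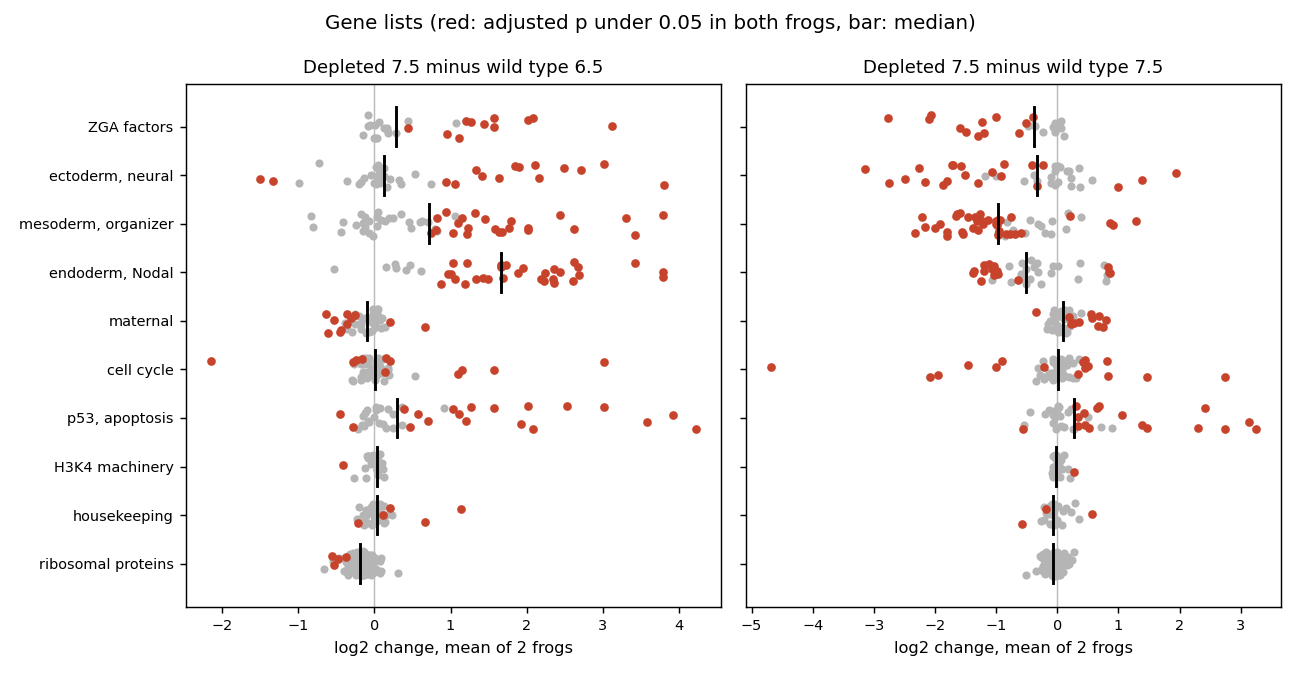
Log2 change of each list member (mean of 2 frogs, x axis) in depleted 7.5 hpf embryos against wild type 6.5 hpf and against wild type 7.5 hpf, by gene list (y axis). Points in red passed an adjusted p of 0.05 in both frogs and bars are list medians, which for endoderm and Nodal genes are 1.67 and -0.51.

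Depleted embryos were outside the range of both wild type stages for a small set of genes. In both frogs 32 genes (0.163%) were called lower than each wild type stage and 339 (1.73%) higher than each. Control-injected embryos were below both stages for 7 genes and above both for 300. With globin and H3.3 genes such as hbg1.L left uncounted, all depleted pools lay outside all wild type pools for 30 of the 32 and 320 of the 339. These genes were chosen by their calls, so this separation is only a description.

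Transcription factors of the neural plate and members of the hairy and enhancer of split (Hes) family, bHLH repressors that act in Notch signalling, were among the 32 lower genes. The S copy of hes7.1 (3S:127787507-127789578 in Xenopus_laevis_v10.1) was listed at 0, 0 and 0.0717 rescaled TPM in depleted pools of frog 1 and at 0.122, 0.171 and 0 in frog 2. Wild type pools held 2.97, 3.81 and 3.04 at 6.5 hpf and 3.95, 4.25 and 3.66 at 7.5 hpf in frog 1, and 8.54, 6.55 and 7.60 and then 3.81, 6.12 and 4.31 in frog 2. Control-injected pools were also low, at 0.0945, 0.0991 and 0.867 and at 0.825, 1.53 and 2.2, and overlapped none of the wild type pools. Fitted differences from the younger stage were -2.06 ± 0.14 and -2.96 ± 0.20 in depleted embryos (adjusted p = 5.7e-14 and 7.1e-14, limma) and -1.70 and -1.80 in control-injected embryos. The L copy stood at 16.7, 14.4 and 11.9 in depleted pools of frog 1 against 47.9, 41.4 and 44.4 at 6.5 hpf and 13.2, 12.0 and 19.7 in controls. Over the family, looked up after these values were seen, 5 of 20 tested genes were lower and 4 higher than at 6.5 hpf in both frogs, beside 1.8% and 6.41% of all genes.

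Cdc25b.L, a phosphatase that activates Cdk1, rose in wild type embryos over the hour and was below both stages in depleted embryos. In frog 1 it stood at 9.99, 6.93 and 10.2 in wild type pools of 6.5 hpf, 64.1, 67.1 and 62.2 at 7.5 hpf, and 1.69, 2.51 and 2.71 in depleted pools. Frog 2 held 12.3, 13.4 and 15.3, then 66.7, 78.1 and 77.0, and 1.01, 1.5 and 1.26 in depleted pools. Its level in control-injected pools varied widely, with 2.14, 3.03 and 26.3 in frog 1 and 6.48, 16.1 and 43.2 in frog 2. The highest control value of each frog came from the pools with the least hbg1.L signal of the injected mRNA, 5686 deposited TPM in pool 1.3 and 2240 in pool 2.3, against 10802 and 14260 in the other control pools of frog 1 and 6150 and 2712 in those of frog 2. The part of injected amount in these levels was not tested. The log2 change of depleted embryos from the younger stage was -1.6 ± 0.40 and -2.70 ± 0.39 (adjusted p = 0.0043 and 3.2e-06, limma).

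The neural plate zinc finger gene zic1.S (5S:109229133-109233772) was the 1 gene of the 32 that was also called below control-injected embryos in both frogs. Depleted pools held 4.63, 4.08 and 5.63 rescaled TPM in frog 1, younger wild type pools 11.8, 9.26 and 9.56, older ones 43.7, 40.7 and 35.4, and control-injected pools 6.90, 6.69 and 23.6. Frog 2 gave 4.54, 3.81 and 3.11, then 14.3, 13.9 and 16.0, then 46.4, 50.7 and 60.5, with controls at 12.1, 17.5 and 46.8. No depleted pool overlapped any other group in either frog. The highest control value of each frog again came from pools 1.3 and 2.3, those with the least hbg1.L signal. Depleted embryos also received more Kdm5b mRNA (11 ng against 4 ng), so injected amount and depletion cannot be told apart in the difference from controls. Against controls the log2 differences were -0.99 and -2.24 (adjusted p = 0.031 and 2.3e-06, limma), and against the younger stage -0.96 and -1.72 (adjusted p = 0.0089 and 9.2e-06). In frog 1 the latter missed the threshold without depleted pool 1.2 (-0.87, adjusted p = 0.051, limma) or wild type pool 1.1 (-0.86, adjusted p = 0.052, limma). The L copy, zic1.L, was not called against the younger stage in both frogs (mean log2 change of 0.04). It was called below the older stage in both frogs (mean of -1.51). Against control-injected embryos the mean difference of zic1.L was -0.75, without a call in both frogs.

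Over the 32 genes the median log2 differences of depleted embryos were -1.09 from wild type 6.5 hpf, -1.63 from wild type 7.5 hpf and -0.53 from control-injected embryos, where the choice of these genes sets the sign against wild type. The same depleted libraries enter the difference from controls, so low depleted values chosen here also push that difference down, and it is given as a description. Depleted embryos were called below control-injected embryos for 1 of these genes in frog 1 and 22 in frog 2, beside 1.46% and 3.87% of all genes. Control-injected embryos were themselves called below wild type 6.5 hpf in both frogs for 10 of the 32 and below wild type 7.5 hpf for 24. The shares over all genes were 6.97% and 0.669%. The same wild type pools chose the 32, so high wild type values also push the control calls down, and these counts are descriptive. The number of lower genes was 18 with a pseudocount of 0.1, 58 after quantile normalisation and 5 among genes averaging 5 TPM or more.

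Genes above both stages were for the most part also up in control-injected embryos. Of the 339, controls were called higher than wild type 6.5 hpf in both frogs for 311, beside 10.2% of all genes. They were called higher than wild type 7.5 hpf for 274, beside 1.72% of all genes. The same wild type pools chose the 339, so low wild type values also push the control calls up, and these counts are descriptive. Over the 339 the median log2 difference between depleted and control-injected embryos was 0.09. Depleted embryos were called above controls for 1 of these genes in frog 1 and 88 in frog 2, beside 0.546% and 3.04% of all genes. They were called below controls for 15 and 2, beside 1.46% and 3.87%. The same depleted pools chose the 339, so high depleted values push these differences up, and the counts are descriptive. By annotation 283 of the 339 coded for protein and 52 were lncRNA genes. The number was 592 with no filter on low values and 102 among genes averaging 5 TPM or more.

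Targets of p53, the transcription factor of the DNA damage response, were among them. Of 40 p53 and apoptosis genes, 17 were higher and 2 lower than at 6.5 hpf in both frogs (median 0.30), and 16 were higher and 1 lower than wild type 7.5 hpf (median 0.27). The shares over all genes were 6.41% and 1.8%, then 4.18% and 2.98%, and for controls against 6.5 hpf 10.2% and 6.97%. In control-injected embryos 19 were higher and 3 lower than at 6.5 hpf. Depleted embryos were called below controls in both frogs for 1 of the 40 and above for 0, beside 0.981% and 0.301% of all genes. Plk2.L (1L:207550020-207557758), a stress-responsive kinase, stood at 32.1, 41.0 and 31.3 in depleted pools of frog 1, at 1.47, 0.685 and 2.43 in younger and 4.98, 5.05 and 4.16 in older wild type pools, and at 38.1, 38.7 and 31.0 in controls. In frog 2 it stood at 31.5, 29.2 and 33.1, then 0.323, 0.397 and 0.328, then 0.986, 1.33 and 1.3, with controls at 31.9, 23.3 and 12.6. Depleted and control-injected pools overlapped in both frogs (log2 differences of -0.05 and 0.54, adjusted p = 0.96 and 0.15, limma). Mdm2.L, the ubiquitin ligase that limits p53, was 2.06 and 3.00 above the younger stage, and the cell cycle inhibitor cdkn1a.L 2.90 and 3.14, and neither was called against controls.

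The apelin receptor genes aplnr.L and aplnr.S, known from mesoderm and vessel development, rose among the most. Depleted pools of frog 1 held 71.3, 72.6 and 68.9 rescaled TPM of aplnr.S, against 1.88, 1.08 and 4.00 at 6.5 hpf and 13.7, 15.5 and 11.6 at 7.5 hpf, with 93.9, 101 and 74.0 in controls. Frog 2 had 63.3, 58.8 and 66.5, against 0.296, 0.540 and 0.247, then 2.02, 1.17 and 2.13, with 72.9, 78.2 and 39.2 in controls. The rise was 4.53 ± 0.21 and 5.56 ± 0.21 on the log2 scale. A greater rise, exceeded among the 339 by that of the injected hbg1.L, was that of the lncRNA gene LOC121396416 (7S:57736231-57760994), at 1397, 1107 and 1463 in depleted pools of frog 1 and 2.90 or below in younger wild type pools, with controls at 1793, 1697 and 1182. Its log2 changes were 9.41 and 9.83.

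Depleted pools also lay outside the range of all control-injected pools in both frogs for 4 of the 339 higher genes, hbg1.L, LOC108712258, rnf182.L and LOC121395217, as for 4 of the 32 lower genes, hes7.1.S, zic1.S, lhx5.L and LOC108718087. Of these, lhx5.L lost its call against 6.5 hpf in frog 1 without wild type pool 1.1 (-0.51, adjusted p = 0.071, limma). In frog 1 the values of hes7.1.S were very low in depleted and control-injected pools alike, and the groups were not called apart. The same count over all genes is not given, so both counts of 4 are descriptive. The protein-coding LOC108712258 (3S:6252828-6304837), which the annotation gives no further name, stood at 194, 158 and 260 rescaled TPM in depleted pools of frog 1 and at 110, 147 and 94.5 in frog 2. Wild type pools of 6.5 hpf held 17.0, 16.9 and 18.4 in frog 1 and 13.2, 14.4 and 14.4 in frog 2, those of 7.5 hpf 16.5 to 17.3 and 13.8 to 15.3, and control-injected pools 16.7 to 19.3 and 13.5 to 13.7. Depleted pools of 6.5 hpf already held 169 and 104 on average. It was the 1 gene of the 339 called above control-injected embryos in both frogs, by 3.43 ± 0.22 and 3.00 ± 0.17 log2 units (adjusted p = 1.4e-12 and 4.9e-14, limma), and it was chosen for description after its values were seen. Whether its signal comes from the embryo or from injected Kdm5bwt or H3.3K4M mRNA was not tested.

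The remaining lists are given beside the 6.41% of all genes called higher and the 1.8% called lower in both frogs. Of 31 genes for H3K4 methyltransferases and demethylases 1 was lower than at 6.5 hpf, kmt2e.S (-0.41 and -0.40), and 0 were higher. Of 13 RNA sensing and interferon genes 2 were higher, the antiviral rsad2.L (1.15 and 1.69) and the DNA-sensing adaptor gene sting1.S (0.87 and 1.02). Against the same younger pools, control-injected embryos had mean changes of 1.28 for rsad2.L, 0.83 for sting1.S and -0.53 for kmt2e.S. Wild type embryos of 7.5 hpf had 0.70, 0.64 and -0.44. Rsad2.L was also called above wild type 7.5 hpf in depleted embryos of both frogs (0.73). Of 37 housekeeping and growth genes 4 were higher and 1 lower. Among 132 ribosomal protein genes 4 were lower and 0 higher (median -0.19). For rpl8.L of the large ribosomal subunit the change in frog 1 was -0.62 to -0.50 on leaving out each of the 6 pools, with adjusted p from 0.062 to 0.153 (limma).

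Over all genes averaging 10 TPM or more, the depleted embryos were nearer to wild type embryos of their own age than to those 1 h younger, with the lowest median distance to control-injected embryos. The root mean square log2 difference between a depleted pool and a wild type pool of 7.5 hpf, over 11630 genes of at least 10 TPM on average in frog 1, was 0.346 to 0.377, with a median of 0.368. To wild type pools of 6.5 hpf it was 0.555 to 0.607, with a median of 0.568, and these ranges do not overlap. To control-injected pools it was 0.257 to 0.347, with a median of 0.329, which meets the range to wild type 7.5 hpf, and between depleted pools the median was 0.275. In frog 2, over 11386 genes, the medians were 0.382 to wild type 7.5 hpf, 0.499 to wild type 6.5 hpf, 0.294 to control-injected pools and 0.237 between depleted pools. The ranges of the former pair, 0.356 to 0.427 and 0.456 to 0.508, do not overlap either. Wild type pools of 6.5 and 7.5 hpf were 0.573 and 0.534 apart. Pools of 6.5 hpf also differed more among themselves (0.313 and 0.358) than those of 7.5 hpf (0.28 and 0.268), and the part of that spread in the distances was not tested. Over genes not called between the wild type stages in the other frog, the ranges to 6.5 and 7.5 hpf were 0.384 to 0.417 and 0.299 to 0.371 in frog 1 and overlapped in frog 2, at 0.312 to 0.411 and 0.284 to 0.375.

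**Figure D5:**
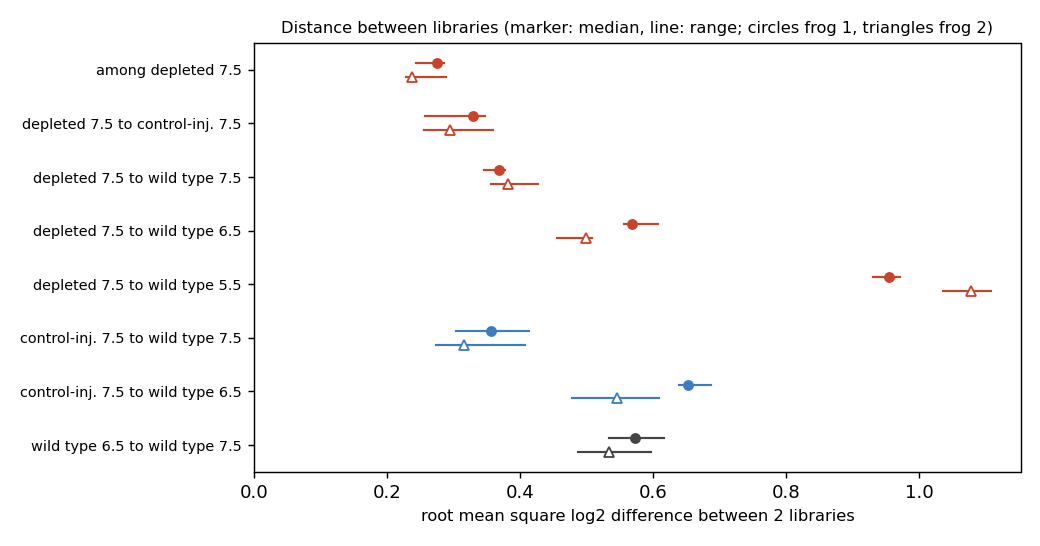
Root mean square log2 difference between 2 libraries (x axis) for pairs of groups (y axis), as the median (marker) and range (line) over library pairs, with circles for frog 1 and triangles for frog 2. Depleted pools lie nearer to wild type 7.5 hpf (0.368 and 0.382) than to wild type 6.5 hpf (0.568 and 0.499).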

How the data were processed

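Whole embryos were profiled by RNA-seq after ribosomal RNA depletion. The authors estimated transcript abundance with kallisto 0.48 against Xenbase v10.1 transcripts and deposited TPM summed over isoforms per gene, in 1 table of 45 libraries for each of 2 frogs, and the files were used as deposited. Processing notes also name R 4.3.2 and DESeq2 1.42.1, for which the authors' results were not used here. Of 39690 and 39432 entries, 37504 and 36504 were genes, since repeated symbols were summed and 806 entries with no gene name in frog 2 (up to 0.0744% of TPM) were left out. RefSeq symbols matched 36783 and 35801 genes, with coordinates of Xenopus_laevis_v10.1.

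TPM were rescaled by median ratios over the genes averaging 10 TPM or more (11364 and 11172 genes). Genes at 1 TPM or more in at least 3 libraries were tested (20891 and 20277). With limma 3.58.1 in R 4.3.3, 1 mean for each of 15 groups was fitted to log2(rescaled TPM + 1) within each frog, with a mean-variance trend, two-sided tests and Benjamini-Hochberg adjustment over all genes, at 0.05. The scripts were tested on simulated data. The study treats frogs as biological and pools as technical replicates, and no 2 libraries held identical values. Pool numbers were treated as names only.

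The comparison, the gene lists and the rule for named genes were chosen with earlier results of these data known, so no list is independent evidence. By that rule the text names, from the 8 genes in each direction with the greatest change in both frogs, the 8 furthest beyond both wild type stages and up to 4 members of each list, those whose values the results turn on. Also named, after their values were seen, were zic1.S, zic1.L, pou5f3.1.L, gsc.S, wnt8a.L, nog.L, foxd4l1.1.L, cdk1.L, mdm2.L, LOC108712258, ventx1.1.L, ventx1.1.S, ventx1.2.L, foxd4l1.1.S, rnf182.L, LOC121395217, lhx5.L, LOC108718087 and the Hes family. Alternatives were other scalings, pseudocounts, filters and fits, protein-coding genes alone, and leaving out each library.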

Additional observations from a re-analysis of the deposited data

Results flagged for a closer look

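The sign of the call differed between the frogs for 2 genes. The kinesin heavy chain gene kif5b.S was -0.157 on the log2 scale against wild type 6.5 hpf in frog 1 and 0.162 in frog 2, and the kinase gene taok3.L was -0.103 and 0.155. Each passed an adjusted p of 0.05 (limma) in both frogs, with opposite signs. On the TPM as deposited both were negative in frog 2 and lost their call there (-0.0940 and -0.100, adjusted p = 0.377 and 0.385, limma), so the opposite signs depend on the scaling. The difference between the frogs itself was not tested.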

How the results depend on the processing

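Calls fell where fewer genes or libraries were used. Among genes averaging 5 TPM or more, 967 and 1405 genes were higher in the 2 frogs and 618 in both, 5 lay below and 102 above both wild type stages, and rising positions were 0.858 and 0.792. With the libraries of the contrast alone, frog 2 had 501 lower and 1257 higher genes, and 176 were lower in both frogs. On the TPM as deposited, lower genes numbered 2746, 8506 and 2204 in both, higher genes of frog 2 numbered 1191, and falling positions were 0.722 and 0.550. Quantile normalisation gave 2392, 2689 and 1007 lower genes, 58 below both stages and a falling position of 0.498 in frog 2, and rescaling over genes averaging 50 TPM or more gave 1161 lower genes in frog 1. A pseudocount of 0.1 left 18 genes below both stages, no filter gave 592 above both, and protein-coding genes alone gave a rising position of 0.517 in frog 2. The cause of these shifts was not tested, and neither was the part of the smaller numbers of genes and libraries in them.

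Leaving out 1 library at a time gave 421 to 470 lower and 1640 to 1718 higher genes in frog 1, 1026 to 1282 and 1783 to 2000 in frog 2, 220 to 312 and 1106 to 1205 in both, and 22 to 31 below and 303 to 335 above both stages. The counts for lower genes of frog 1 were 470, 464 and 448 without depleted pools 1.1, 1.2 and 1.3. They were 469, 457 and 421 without wild type pools 1.1, 1.2 and 1.3, and 220 in both frogs without the last. Positions were 0.710 to 0.729 and 0.602 to 0.616 over rising genes and 0.458 to 0.495 and 0.378 to 0.405 over falling genes. Same-numbered pools did not deviate together (correlations of -0.0907 to 0.133 over genes), and a fit that took pools of like number as blocks called 685 lower and 1975 higher genes for frog 1, and 1447 and 2190 for frog 2.

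Of 2434 values of 84 named genes under the alternatives, 2316 kept their call, 104 lost it, 8 gained one and 6 changed direction. On the TPM as deposited, the latter were nop56.L (-0.0153 and -0.0717), kdm5b.S (-0.240), kif5b.S (-0.0940) and taok3.L (-0.100), the last 3 in frog 2, and after quantile normalisation h3-3b.L in frog 1 (-0.232).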
